A study of Mus musculus with 4 samples.

Results

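Muscle loss runs through a small set of ubiquitin ligases and the FoxO transcription factors that switch them on. The 9 genes described here are 3 MuRF ligases (Trim63, Trim54 and Trim55), 3 F-box ligase subunits (Fbxo32, Fbxo30 and Fbxo40) and 3 FoxO factors (Foxo1, Foxo3 and Foxo4). They were taken by symbol from the authors' deposited table and joined by Ensembl identifier to the count files, which hold 49585 genes. Each of the 9 was found and had enough counts to be tested, among 15078 tested genes.

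RNA came from C2C12, a myoblast line of C3H mouse origin, sampled as proliferating cells. One group carried an empty retroviral vector (pLXSN) and the other a retrovirus that overexpresses C/EBPβ, a leucine-zipper transcription factor, with 2 libraries each. Cells of both groups had passed 7 days of selection in G418 at 1200 μg/ml, were kept as pools and then grew for 48 h, the line being maintained in 10% serum. The labels do not say whether the replicates were separate transductions or cultures, and the p-values therefore cover no more than the spread between these 4 libraries, which may be technical. The comparison asks how forced C/EBPβ changes transcripts in myoblasts that have not been induced to differentiate.

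MuRF proteins are RING-finger ubiquitin ligases that associate with titin in the sarcomere and with microtubules. Fbxo32 encodes atrogin-1, Fbxo30 encodes MUSA1, and Fbxo40 encodes a muscle-specific relative. As F-box proteins they choose the substrate for a cullin-based ligase of the SCF type. FoxO proteins are forkhead factors that Akt phosphorylates and keeps out of the nucleus when insulin or IGF-1 signals. In fasting, denervation and cachexia they enter the nucleus and switch on Fbxo32 and Trim63, and C/EBPβ is itself a known activator of Fbxo32 in muscle exposed to tumour factors. FoxO activity is set largely on the protein, which RNA levels do not report.

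C/EBPβ myoblasts had less RNA of the 3 MuRF ligases and of Fbxo40, and more RNA of Fbxo32, Foxo1 and Foxo3. Trim63, the classical atrophy ligase MuRF1, fell 5.09-fold from a level that was already low. Fbxo32, the other classical atrophy ligase, rose 1.63-fold. Fbxo30 and Foxo4 did not pass the test. In all, 4 of the 9 genes fell and 3 rose at an adjusted p under 0.05, where 10.8% of all tested genes fell and 14.1% rose (24.9% in either direction). The 4 include Trim63, which was tested only because its empty vector libraries had enough counts. The test behind each adjusted p of a gene is the quasi-likelihood test of edgeR over all tested genes with Benjamini-Hochberg adjustment, and changes are C/EBPβ over empty vector. The median log2 fold change was -0.20 over the 9 genes and 0.00 over all tested genes.

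The libraries held 37566321 to 92027838 counts assigned to genes, the largest being C/EBPβ replicate 2. Cebpb itself, which includes any reads of the vector copy that map to it, stood at 85.0 and 76.8 CPM (counts scaled to the library total over the tested genes, with TMM factors) in empty vector and at 483 and 473 CPM in C/EBPβ cells. Myoblast genes were present in every library. Myod1 and Des, named after their values were seen, were at 175 and 166 CPM and at 1296 and 1335 CPM in empty vector and fell to 129 and 137 CPM (log2 fold change -0.36, adjusted p = 0.0151) and to 855 and 919 CPM (-0.57, adjusted p = 0.00426). The call of Myod1 ended without C/EBPβ replicate 1 (-0.32, adjusted p = 0.152). Among the 11 markers of macrophages and leukocytes, 3 of 4 tested rose and 7 had too few counts, with Tyrobp, Adgre1, Itgam and Cd3e at 0 in every library. Summed CPM of a list, here and below, are scaled to the library total over all genes, without TMM factors. For these 11 markers they were 21.3 and 19.3 in empty vector and 36.5 and 38.5 in C/EBPβ cells.

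Upstream sequence was looked at for the 6 of the 9 genes that have a RefSeq window of the GRCm38.p6 build (Trim63, Trim54, Fbxo30, Fbxo40, Foxo1 and Foxo3). Shown are the 250 bases before the annotated start of Trim63 (chr4:134314870-134315119, plus strand) and of the outer start of Fbxo40 (chr16:36990468-36990717, minus strand), as genes that fell. Foxo1 (chr3:52268087-52268336, plus strand) is shown as a gene that rose. Capitals mark matches to TTGCNNAA, a C/EBP-type motif, to GTAAACA, a FoxO motif, and to the E-box CANNTG, bound by Myod1 and Myog, with both strands searched.
Trim63: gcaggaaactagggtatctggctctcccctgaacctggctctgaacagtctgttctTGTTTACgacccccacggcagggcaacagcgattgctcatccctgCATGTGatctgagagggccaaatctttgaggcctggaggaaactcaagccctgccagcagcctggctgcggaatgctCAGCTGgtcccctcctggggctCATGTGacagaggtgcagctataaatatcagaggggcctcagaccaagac
Fbxo40: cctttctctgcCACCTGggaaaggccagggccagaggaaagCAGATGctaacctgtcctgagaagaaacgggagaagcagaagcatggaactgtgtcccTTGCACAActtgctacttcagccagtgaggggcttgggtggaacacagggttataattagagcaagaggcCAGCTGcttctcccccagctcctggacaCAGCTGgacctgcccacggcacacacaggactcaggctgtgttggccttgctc
Foxo1: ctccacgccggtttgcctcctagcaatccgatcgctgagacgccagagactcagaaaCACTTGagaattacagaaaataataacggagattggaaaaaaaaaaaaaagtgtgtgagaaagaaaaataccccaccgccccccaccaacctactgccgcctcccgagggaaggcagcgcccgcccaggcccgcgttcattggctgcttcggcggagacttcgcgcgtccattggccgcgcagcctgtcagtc

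In the Trim63 window the FoxO letters lay 194 to 188 bases before the start, and E-boxes lay at 149, 72 and 50 bases before it, counted to their first base. The Fbxo40 window held 4 E-boxes and 1 C/EBP-type match, TTGCACAA, 151 to 144 bases before the start. The Foxo1 window held 1 E-box, while the Trim54 window and that of the inner Fbxo40 start held 2 each. The Foxo3 and Fbxo30 windows, with GC contents of 76.4% and 80.4%, held no match to these motifs. By the coordinates used for counting, the Fbxo30 window (chr10:11281337-11281586) lies inside the gene, which starts at 11281330. The Foxo3 window (chr10:42276696-42276945) overlaps its gene, which ends at 42276755 on the minus strand. Neither the Fbxo30 nor the Foxo3 window is wholly upstream of the gene as counted. The window of the inner Fbxo40 start (chr16:36979137-36979386) also lies inside its gene, which spans 36963460-36990467. That of Trim54 ends at 31116611, short of the counted start at 31116712, and that of Foxo1 ends on the counted start, 52268336. The marked matches did not overlap. Among 32851 RefSeq windows of the same 250 bases, 9.56% held the C/EBP-type letters, 3.17% the FoxO letters and 66.2% an E-box, so an E-box alone sets no window apart. A MEF2-type motif, also searched on both strands and in 3.20% of all windows, had no match in the windows of these 6 genes.

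Trim63 (ENSMUSG00000028834, chr4:134315120-134329629, plus strand) had 28 and 22 counts in the empty vector libraries and 4 and 12 in the C/EBPβ libraries. These are 0.681 and 0.581 CPM against 0.105 and 0.131 CPM. Both C/EBPβ libraries lay below both controls. The log2 fold change was -2.35 (SE 0.38, 95% interval -3.21 to -1.48, adjusted p = 0.00267). Only the empty vector libraries reached the filter's cutoff of 0.251 CPM, so Trim63 entered the test through the group in which it was high. Its fold change was the 97th lowest of the tested genes.

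Trim55 encodes MuRF2 and lies at chr3:19644474-19692421 on the plus strand (ENSMUSG00000060913). It stood at 30.8 and 35.8 CPM in empty vector cells and at 10.5 and 14.3 CPM in C/EBPβ cells, from 402 to 1355 counts a library. The log2 fold change of -1.41 had an SE of 0.15 (adjusted p = 3.96e-04), a 2.66-fold fall, and the groups did not overlap. Of the 3 MuRF genes its change was the most precisely measured.

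Trim54 encodes MuRF3, known as a microtubule-binding ligase of the Z-disc, and lies at chr5:31116712-31137630 on the plus strand (ENSMUSG00000062077). Its libraries gave 13.3 and 9.94 CPM for empty vector and 3.38 and 5.63 CPM for C/EBPβ. The fall was 2.52-fold (log2 fold change -1.33, SE 0.24, adjusted p = 0.00457). The C/EBPβ replicates differed 1.66-fold, and the log2 fold change was -1.05 without C/EBPβ replicate 1 and -1.78 without C/EBPβ replicate 2. In all, 26.6% of its exon bases are shared with a gene on the opposite strand, Gm15469, which had at most 6 counts in any library. The 95% intervals of the 3 MuRF genes overlapped, with -1.88 to -0.78 for Trim54 and -1.76 to -1.06 for Trim55.

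**Figure D1:**
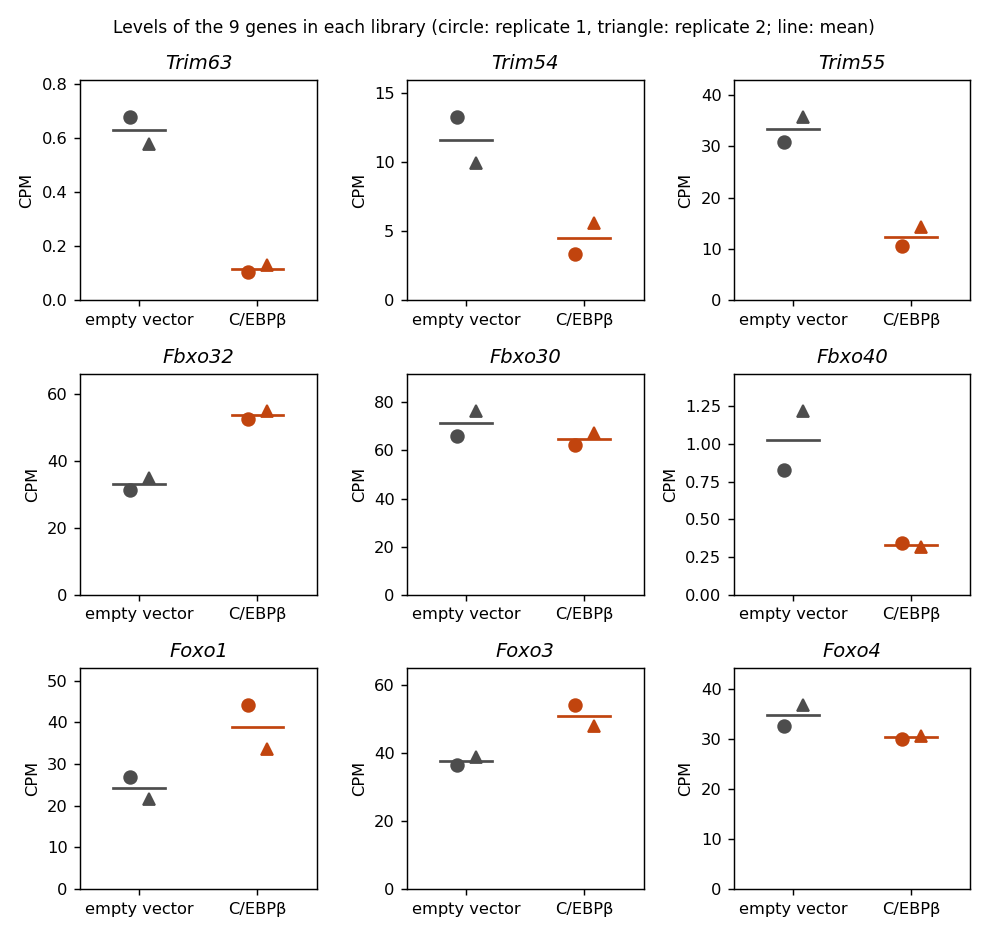
Level of each of the 9 genes in CPM (linear axes from 0, 1 scale per gene) in the 2 empty vector and 2 C/EBPβ libraries, with circles for replicate 1, triangles for replicate 2 and lines for group means. Trim63, Trim54, Trim55 and Fbxo40 are lower and Fbxo32, Foxo1 and Foxo3 higher in both C/EBPβ libraries than in both controls, while the Fbxo30 groups overlap.

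Fbxo32 (ENSMUSG00000022358, chr15:58175879-58214892, minus strand) went from 31.2 and 34.9 CPM to 52.6 and 55.0 CPM. The gap between the groups exceeded the spread within either of them. The rise was 0.70 on the log2 scale (SE 0.09, 95% interval 0.49 to 0.92, adjusted p = 9.72e-04). Leaving out each library in turn gave log2 fold changes between 0.62 and 0.78, the call being kept each time. Antisense Gm15943, which shares 2.68% of its exon bases, had at most 4 counts in any library.

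Fbxo40 (ENSMUSG00000047746, chr16:36963460-36990467, minus strand), whose product is known to target the insulin receptor substrate Irs1, was rare. It had 34 and 46 counts in empty vector and 13 and 29 in C/EBPβ libraries, or 0.827 and 1.22 CPM against 0.341 and 0.316 CPM. The fall was 3.12-fold, or -1.64 on the log2 scale (SE 0.32, adjusted p = 0.00723). The groups did not overlap. Dropping empty vector replicate 2 ended the call (log2 fold change -1.34, adjusted p = 0.0643).

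Fbxo30 (ENSMUSG00000047648, chr10:11281330-11298052, plus strand), a ligase subunit that BMP signalling is known to hold down in muscle, stood at 66.0 and 76.5 CPM in empty vector and 62.4 and 67.4 CPM in C/EBPβ cells. The groups overlapped. Its log2 fold change was -0.13 (95% interval -0.36 to 0.09, adjusted p = 0.360), an interval that reaches from 0.78-fold to 1.06-fold.

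Foxo1 (ENSMUSG00000044167, chr3:52268336-52353221, plus strand), a factor known to drive fasting metabolism, stood at 27.0 and 21.6 CPM in empty vector cells. In C/EBPβ cells it stood at 44.2 and 33.7 CPM. The rise was 0.68 on the log2 scale, with SE 0.15 and adjusted p = 0.0137. Both C/EBPβ libraries lay above both controls, but the replicates of each group were well apart. Dropping empty vector replicate 2 ended the call (log2 fold change 0.52, adjusted p = 0.0774).

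Foxo3 (ENSMUSG00000048756, chr10:42181841-42276755, minus strand), the FoxO best known as a driver of Fbxo32 and of autophagy in muscle, went from 36.4 and 38.9 CPM to 54.2 and 47.9 CPM. The rise was 1.35-fold (log2 fold change 0.44, SE 0.10, adjusted p = 0.0117). Of the fits with 1 library dropped, the one lacking empty vector replicate 1 (log2 fold change 0.39, adjusted p = 0.0501) and the one lacking C/EBPβ replicate 1 (0.35, adjusted p = 0.100) ended the call.

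Foxo4 (ENSMUSG00000042903, chrX:101254528-101260873, plus strand), the FoxO on the X chromosome, was at 32.6 and 36.8 CPM in empty vector and 30.0 and 30.6 CPM in C/EBPβ cells. Its log2 fold change of -0.20 did not pass the test (95% interval -0.42 to 0.03, adjusted p = 0.192). Its C/EBPβ libraries lay below the controls all the same. Groups that did not overlap were seen in 8 of the 9 genes and in 66.2% of all tested genes.

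**Figure D2:**
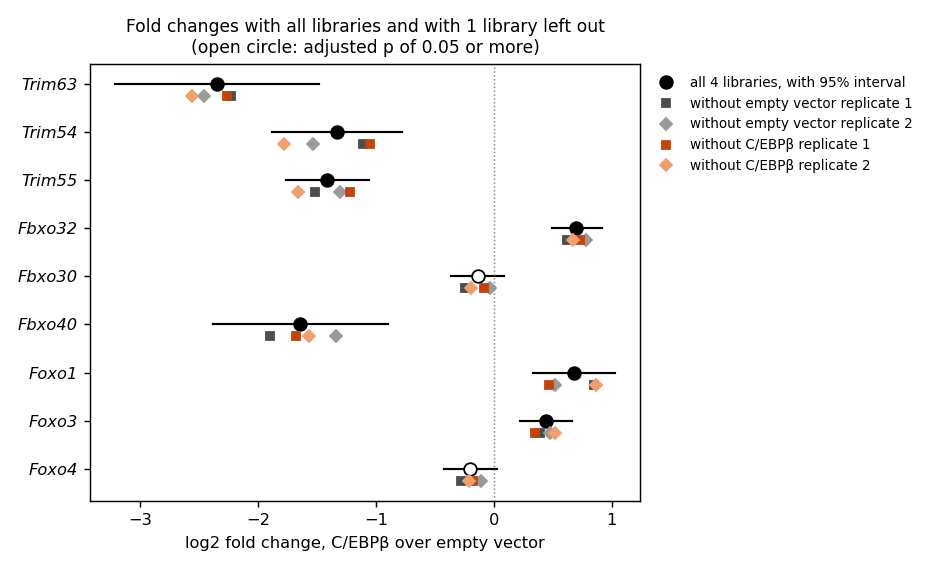
Log2 fold change of each gene, C/EBPβ over empty vector, with its 95% interval (circles and bars, open where the adjusted p was 0.05 or more), and the values when each library was left out (squares and diamonds below). Each gene keeps its side of 0 in the 4 leave-one-out fits, and Trim54 moves between -1.78 and -1.05.

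Levels were compared between genes as TPM (counts per kilobase of exon, scaled to the same sum in each library). In empty vector cells the order ran from Fbxo30 (44.8 ± 6.64, mean ± SD, n = 2) and Trim55 (40.9 ± 6.16) to Foxo4 (32.5 ± 4.23) and Trim54 (26.3 ± 4.24). Then came Foxo3 (16.2 ± 1.47), Fbxo32 (15.5 ± 1.91) and Foxo1 (9.10 ± 1.03). Trim63 (0.722 ± 0.0487) and Fbxo40 (0.607 ± 0.189) were far below the rest. Fbxo30 and Trim55, Foxo3 and Fbxo32, and Trim63 and Fbxo40 are neighbours in that order whose libraries overlap. The length matters for Trim63, which came to 1.09 TPM in empty vector cells when the longest GENCODE transcript served as its length.

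In C/EBPβ cells Fbxo30 (41.0 ± 2.38 TPM) and Foxo4 (28.6 ± 0.498 TPM) led the order. Fbxo32 (25.5 ± 0.916 TPM) and Foxo3 (22.2 ± 1.84 TPM) now stood above Trim55 (15.3 ± 3.35 TPM), and Foxo1 (14.8 ± 2.75 TPM) above Trim54 (10.3 ± 3.68 TPM), although the libraries of Foxo1 overlapped with those of Trim55 and of Trim54. Trim63 was at 0.136 ± 0.0217 TPM and Fbxo40 at 0.195 ± 0.00971 TPM. Myoblasts of either group therefore held far more RNA of Fbxo32 than of Trim63.

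The MuRF family as a whole summed to 66.6 and 69.2 TPM in empty vector and to 20.8 and 30.8 TPM in C/EBPβ cells. Trim55 made up 60.2% ± 7.41 of that sum in empty vector and 60.0% ± 3.40 in C/EBPβ cells, while Trim63 made up 1.06% ± 0.101 and 0.536% ± 0.0626. The summed F-box level was 54.8 and 67.1 TPM in empty vector and 64.4 and 69.0 TPM in C/EBPβ cells, ranges that overlap. Within it the Fbxo32 share was 25.5% ± 0.532 in empty vector and 38.2% ± 0.510 in C/EBPβ cells, and the Fbxo30 share 73.5% ± 0.363 and 61.5% ± 0.539.

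RNA of Foxo1, Foxo3 and Foxo4 summed to 54.6 and 61.2 TPM in empty vector and to 68.4 and 62.6 TPM in C/EBPβ cells. Foxo6, a FoxO gene that fell (log2 fold change -1.42), was left out of this sum and of the shares. The sum is therefore not the total of FoxO RNA, and whether that total was higher in C/EBPβ cells was not tested. Foxo4 took the largest share in each library, 56.1% ± 2.79 in empty vector and 43.7% ± 3.49 in C/EBPβ cells. Foxo3 had 28.1% ± 0.278 and 33.8% ± 0.693, and Foxo1 15.8% ± 3.06 and 22.5% ± 2.80. In each family the shares are given as a description and were not tested.

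**Figure D3:**
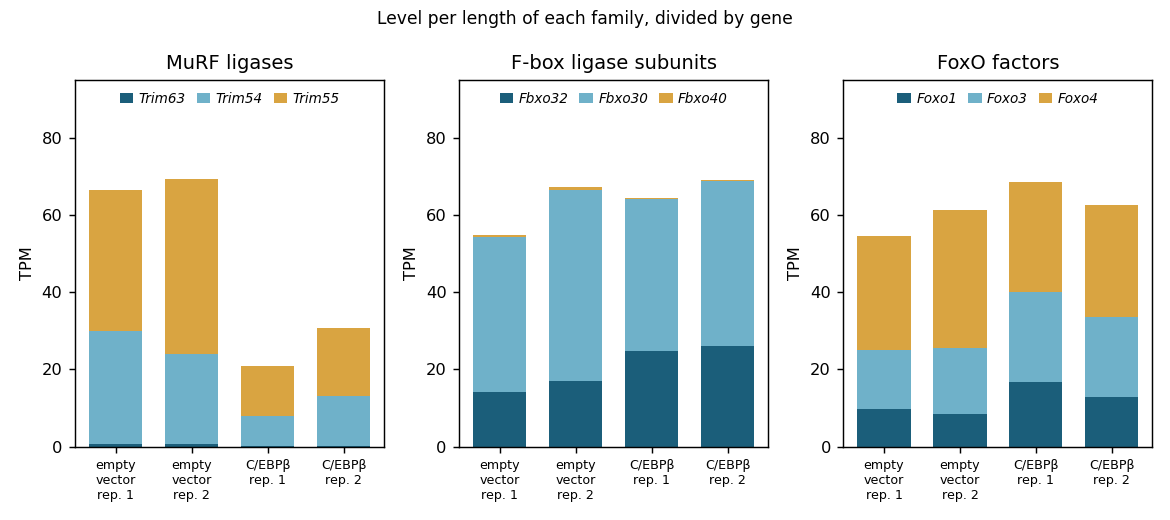
Summed TPM of the MuRF ligases, of the F-box subunits and of Foxo1, Foxo3 and Foxo4 in each library (bars from 0), divided by gene. The MuRF bars are lower in both C/EBPβ libraries, and in the F-box bars the Fbxo32 segment is larger in C/EBPβ cells while that of Fbxo30 lies between 39.3 and 49.5 TPM in the 4 libraries.

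Markers of muscle differentiation fell in the same libraries as the MuRF genes and Fbxo40, while 10.8% of all tested genes fell and 14.1% rose. Of 15 such markers 14 could be tested and all 14 fell, with a median log2 fold change of -2.22, and 12 to 14 fell when each library was left out in turn. One of them, Myh8, named after its values were seen, reached the filter's cutoff only in empty vector libraries, and its call ended without empty vector replicate 2 (-1.89, adjusted p = 0.0686). Tnni1, slow troponin I, stood at 14.9 and 13.2 CPM in empty vector and 2.57 and 2.98 CPM in C/EBPβ cells (log2 fold change -2.32, adjusted p = 3.19e-05), and Acta1, skeletal actin, fell by 1.87. Summed over the 15 markers the level was 890 and 926 CPM in empty vector and 393 and 496 CPM in C/EBPβ cells. In bulk RNA, fewer cells that had begun to differentiate and less RNA per cell cannot be told apart, and the part of either in the falls of the MuRF genes and Fbxo40 was not tested. Myoblast markers moved both ways, with 3 of 8 higher and 4 lower (median -0.38). Myf5 and Pax7, factors of early and quiescent muscle precursors, rose by 0.60 and 0.94, and Itga7 and Cdh15, adhesion molecules of the myogenic lineage, fell by 1.42 and 1.25.

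Among 23 other ubiquitin ligases linked to muscle, 2 rose, 5 fell and 16 did not pass (median -0.05). By comparison, 14.1% of all tested genes rose and 10.8% fell. Cblb, a ligase known to be induced by unloading, rose from 30.0 and 31.9 to 50.5 and 47.8 CPM (0.67, adjusted p = 0.00106). Asb2, a substrate receptor for filamins, rose by 1.67 from a low level of 0.705 and 0.396 CPM, a call that ended when empty vector replicate 2 was dropped (1.32, adjusted p = 0.0774). Klhl40 and Klhl41, cullin adaptors that stabilise sarcomere proteins, fell by 3.27 and 2.23, and Klhl40 reached the filter's cutoff only in empty vector libraries. The other fallers, named to complete the count after their values were seen, were Trim72, the membrane repair protein MG53 (-1.62), Fbxl22 (-1.27) and Trim24 (-0.45). The call of Fbxl22 ended without empty vector replicate 1 (-1.21, adjusted p = 0.0509), and that of Trim24 without empty vector replicate 2 (-0.31, adjusted p = 0.0795) or C/EBPβ replicate 1 (-0.39, adjusted p = 0.0663). The number of risers was 4 in DESeq2 and 4 with no low-count filter.

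Few genes of the general machinery that these ligases share passed the test. Of 23 genes for the SCF core, ubiquitin and its conjugating enzymes, 1 fell and 22 did not pass (median -0.09). The share called over all tested genes was 24.9% in either direction. The faller was Ube2d1, a ubiquitin-conjugating enzyme used by many RING and SCF ligases, at 127 and 134 CPM in empty vector and 66.7 and 77.7 CPM in C/EBPβ cells (-0.85, adjusted p = 4.60e-04). Cul1 and Skp1a, the scaffold and adaptor that hold Fbxo32, had log2 fold changes of -0.06 (adjusted p = 0.681) and -0.18 (adjusted p = 0.181); they were named after their values were seen.

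Genes known as FoxO targets split, in libraries where 14.1% of all tested genes rose and 10.8% fell. Of 28 listed, 25 could be tested, of which 8 rose, 4 fell and 13 did not pass (median 0.05), and 4 rose without C/EBPβ replicate 1. Txnip, a brake on glucose uptake, rose from 44.2 and 42.2 to 110 and 100 CPM (1.28, adjusted p = 3.98e-05). Bnip3, a mitophagy receptor, rose from 22.7 and 21.6 to 46.7 and 41.9 CPM (adjusted p = 2.59e-04). Klf2, a Krüppel-like factor, fell by 0.90, and Gadd45a, a growth arrest and DNA damage gene, by 1.01. The remaining risers, named to complete the count after their values were seen, were Klf15 (3.30), Sesn3 (1.06), Pink1 (0.41), Cited2 (0.41), Ulk1 (0.40) and Ccng2 (0.37), and the remaining fallers were Eif4ebp1 (-0.55) and Sqstm1 (-0.43). Klf15 reached the filter's cutoff only in the C/EBPβ libraries, being at 0.0729 and 0.0793 CPM in empty vector. Without C/EBPβ replicate 1 the calls of Pink1 (0.31, adjusted p = 0.170), Cited2 (0.33, 0.124), Ulk1 (0.35, 0.0864), Ccng2 (0.34, 0.0989) and Sqstm1 (-0.36, 0.0938) ended. Those of Pink1 (0.34, adjusted p = 0.0873) and Cited2 (0.31, 0.0906) also ended without empty vector replicate 2. Autophagy genes were among both, Ulk1 being a kinase that starts autophagy and Sqstm1 a cargo receptor. Foxo1 and Foxo3 RNA rose in the same libraries, and whether their protein acted on these genes was not tested.

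Of 35 genes that control FoxO activity or belong to the family, 6 fell and 29 did not pass (median -0.06), and 2 fell without C/EBPβ replicate 1. Over all tested genes 10.8% fell, and 24.9% were called in either direction. Foxo6, the remaining FoxO gene, went from 8.76 ± 1.07 CPM to 3.25 ± 0.331 CPM (-1.42, adjusted p = 5.02e-04), opposite in direction to Foxo1 and Foxo3. Irs1, the adaptor that links the insulin receptor to Akt and a target of Fbxo40, fell from 227 and 255 to 165 and 165 CPM (-0.55, adjusted p = 0.00288). The other 4, named after their values were seen, were Ywhaz (-0.46), Sirt1 (-0.39), Ywhah (-0.36) and Stk4 (-0.32). Without C/EBPβ replicate 1 the calls of all 4 ended, at -0.37 for Ywhaz (adjusted p = 0.0834), -0.30 for Sirt1 (0.189), -0.29 for Ywhah (0.214) and -0.34 for Stk4 (0.126). Sirt1 (-0.35, adjusted p = 0.0772) and Stk4 (-0.26, 0.0741) were also lost without empty vector replicate 2, and Stk4 without C/EBPβ replicate 2 (-0.30, 0.165). For Akt1 the log2 fold change was -0.16 (adjusted p = 0.245) and for Akt2 -0.03 (adjusted p = 0.818); these too were named after their values were seen.

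**Figure D4:**
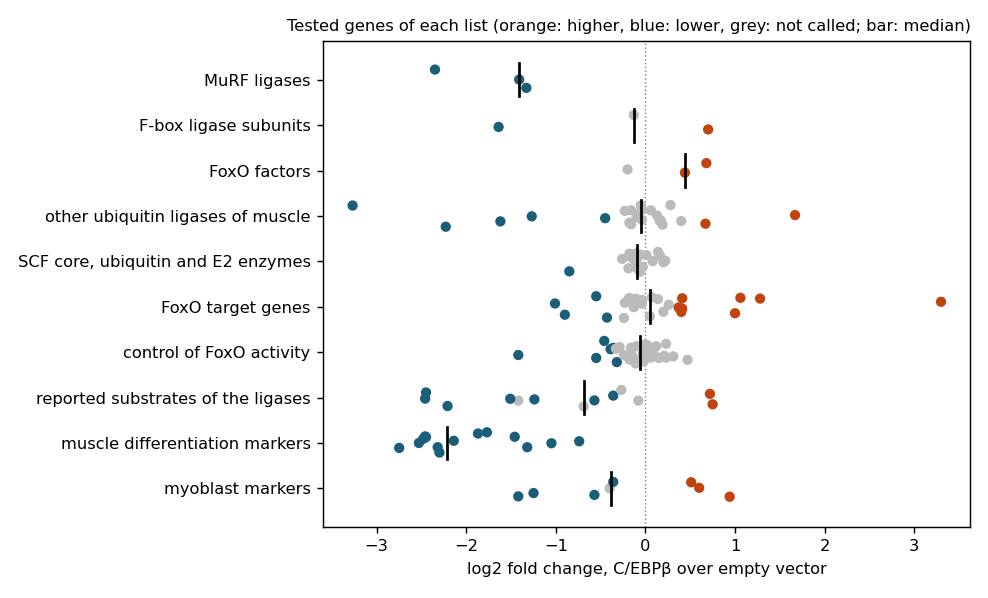
Log2 fold change, C/EBPβ over empty vector, of each tested gene (points, coloured by call, with a vertical scatter that carries no value) in the 3 families and in 7 lists of related genes, with bars for medians. All 14 tested differentiation markers and the 3 MuRF ligases lie below 0, while the other lists hold genes on both sides.

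In the authors' deposited table the same 7 of the 9 genes had an adjusted p under 0.05, where 26.0% of the genes with an adjusted p did. Its log2 fold changes were -2.05 for Trim63, -1.32 for Trim54, -1.46 for Trim55 and -1.53 for Fbxo40. For the risers the authors' deposited table gave 0.66 (Fbxo32), 0.63 (Foxo1) and 0.39 (Foxo3). The base mean in the authors' deposited table was 1112 for Trim63, whereas its highest count in these 4 libraries, scaled by size factors, was 32.9 and the mean 18.1. A base mean over these 4 libraries alone could not reach that value. The deposited base mean also exceeded the highest scaled count for Trim54 (2061 against 643), Trim55 (3306 against 1732) and Fbxo40 (90.0 against 58.8). The same was true of Fbxo32 (3034 against 2644), Foxo3 (2953 against 2611) and Foxo4 (2125 against 1781), but not of Foxo1 and Fbxo30. The authors' deposited table is therefore not an independent or a matched check of these calls. The ratio of deposited base mean to the mean scaled count was 61.5 for Trim63, 5.30 for Trim54 and 2.76 for Fbxo40, and between these last values for Trim55. It lay between 0.863 and 1.45 for the other 5 genes, against a median of 0.926 over 15289 genes with a mean of at least 10 scaled counts.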

How the data were processed

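Whole-number counts of fragments per gene were deposited for each of 4 libraries. Per the file headers they were made with featureCounts 1.5.1, paired and reverse-stranded, on GENCODE M12, leaving out multi-mapping and ambiguous reads. The submitters' processing notes name HISAT2 2.0.4 as a tool, GRCm38 as the build and another featureCounts version (1.4.6), a difference that could not be settled. The authors' deposited table has a base mean (signal), log2 fold change with standard error, test statistic (score) and p-value columns named as in DESeq2, and the sources used here do not say which libraries it covers.

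Symbols matched 49326 identifiers. Genes were kept with filterByExpr (minimum count 10, minimum total 15) and fitted in edgeR 4.0.16 (R 4.3.3) by glmQLFit with TMM scaling and no covariate, with Benjamini-Hochberg adjustment and calls at 0.05. The SE is the log2 fold change over the root of the F statistic. TPM used the deposited exon lengths. The fitting was tested on simulated data. Alternatives were DESeq2 1.42.0, limma-voom (limma 3.58.1), other scalings and filters, a replicate block, a thinned library and each library left out. The 9 genes and the lists were chosen with earlier results of these data known. Named are the 9 genes, Cebpb, and from each list up to 2 called genes higher and 2 lower, chosen by smallest adjusted p, or the 2 most abundant where none passed. Exceptions are marked in the text.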

Additional observations from a re-analysis of the deposited data

How the results depend on the processing

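The sign of each of the 9 log2 fold changes was kept under every alternative in which the gene was tested, and the calls of Trim63, Trim54, Trim55 and Fbxo32 were kept too. Leaving out each library in turn gave -1.90 to -1.34 for Fbxo40, 0.47 to 0.87 for Foxo1 and 0.35 to 0.52 for Foxo3, with calls lost as stated above. A filter of 1 CPM in 2 libraries left Trim63 and Fbxo40 untested, so 2 of the 9 genes then fell. The labels do not say that equal replicate numbers mark a shared culture, and same-numbered libraries deviated together with a correlation of 0.147 over genes. A replicate block gave 2573 higher and 1963 lower genes, kept all 7 calls among the 9 and called 1 riser among the genes that control FoxO activity. Leaving out libraries gave 966 to 1386 lower genes, the lowest without C/EBPβ replicate 1.

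Counts called in the lists moved as follows. Risers among other ligases were 4 in DESeq2 and 4 with no filter. Risers that control FoxO activity were 2 with no filter, 1 with the deepest library thinned and 0 to 3 with a library left out, where fallers ranged from 2 to 7. With a library left out, FoxO targets had 4 to 8 risers, reported substrates 1 to 2, and the SCF and ubiquitin list 0 to 1 risers and 1 to 2 fallers. Endothelial and mural markers had 1 riser in DESeq2, 1 with the stricter filter, 4 with no filter and 1 to 3 with a library left out, and fibroblast markers 0 to 1 fallers. With the longest GENCODE transcript as length, TPM in empty vector and C/EBPβ became 1.09 and 0.205 for Trim63 and 18.0 and 24.5 for Foxo3, and in C/EBPβ cells 0.210 for Fbxo40 and 31.5 for Foxo4. Of the genes named after their values were seen, the same alternatives, applied later, changed the sign of Cul1 without empty vector replicate 2 (0.01) and brought Akt2 to 0.00 without C/EBPβ replicate 2. Depth limits Trim63 and Fbxo40, with 4 to 46 counts a library.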

Other observations

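Reported substrates of these ligases moved in both directions. Of 17 listed, 13 had enough counts to be tested, of which 7 fell and 2 rose (median log2 fold change -0.69). Shares over all tested genes were 10.8% falling and 14.1% rising. Myl1 and Mylpf, fast myosin light chains, fell, from 22.1 and 20.2 to 3.83 and 5.14 CPM for Myl1 (log2 fold change -2.21) and from 50.0 and 40.1 to 6.32 and 9.87 CPM for Mylpf (-2.45). Both are also genes of differentiating muscle, and Mylpf stands in the list of differentiation markers as well. Ppp3ca, a catalytic subunit of calcineurin, rose from 118 and 98.8 to 187 and 170 CPM (0.72, adjusted p = 0.00169 by edgeR). Ldb3, a Z-disc protein, went from 29.6 and 34.1 to 64.6 and 42.7 CPM (0.75, adjusted p = 0.0169), a call that ended when either empty vector library was dropped (adjusted p = 0.107 and 0.0528). Without C/EBPβ replicate 1 its log2 fold change was 0.42. One of the 7 fallers, Tcap, reached the filter's cutoff only in empty vector libraries, and its call ended in DESeq2 (adjusted p = 0.248), with the deepest library thinned (0.0580) and with any library left out (0.0917 to 0.158). Eif3f, a translation factor known as a target of atrogin-1, stood at -0.27 on the log2 scale (adjusted p = 0.0565) and was named after its value was seen. It passed the test in DESeq2 (adjusted p = 0.0398), with library totals only (0.0462), with a replicate block (0.0417) and without empty vector replicate 2 (-0.35, adjusted p = 0.0256).

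Markers of other mesenchymal and vascular cells were measured in the same libraries, in which 14.1% of all tested genes rose and 10.8% fell. Of 8 fibroblast and fibro-adipogenic markers 6 had enough counts, and of these 4 rose and 1 fell. Summed CPM were 423 and 369 in empty vector and 416 and 370 in C/EBPβ cells. Most of each sum came from a marker that did not pass the test, so the sums do not reflect the 4 rises. Pdgfra and Mfap5 rose by 2.57 and 3.74 and Cd34 fell by 0.70, a call that ended when empty vector replicate 1 was dropped (adjusted p = 0.0751). Of 9 endothelial and mural markers 4 could be tested and 2 rose, Pdgfrb by 1.28 and Vwf by 1.82, the latter from 0.243 and 0.159 CPM. The call of Vwf ended in DESeq2 (adjusted p = 0.0503) and when empty vector replicate 2 was dropped (0.0643). Among leukocyte genes Cd14 rose by 0.72 and Csf1r by 1.33 (adjusted p = 0.0235), a call that ended without empty vector replicate 2 (0.89, adjusted p = 0.0987), while the change was larger without empty vector replicate 1 (adjusted p = 0.0159). Lyz2 rose from 0.0994 ± 0.0658 CPM to 6.19 ± 1.85 CPM (mean ± SD, n = 2), and its fitted change of 5.88 rests on a base near 0. Vwf, Lyz2 and Dpt, one of the 4 fibroblast risers, reached the filter's cutoff only in C/EBPβ libraries. Csf1r, Dpt and Tcap were named after their values were seen.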
